A study of Caenorhabditis elegans with 2 samples.

Results

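Small nuclear RNA (snRNA) genes of the nematode Caenorhabditis elegans were examined for binding by ATTF-6, an AT-hook protein, in chromatin immunoprecipitation sequencing (ChIP-seq) of whole young adults. The set comprised all genes with the biotype snRNA in Ensembl release 115, apart from the spliced leader genes (symbols starting sls-1 or sls-2) and the smy genes. It held 89 of the 129 snRNA genes and of the 46890 annotated genes. A gene was called bound when a region of the joint conservative list had its summit, the position of highest signal, within 500 bp of the gene start.

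The worms were of strain RW12231, in which a CRISPR insertion at attf-6 on chromosome I adds TY1, EGFP and 3xFLAG tags to the protein. They were grown to 64 h from starved, bleach-synchronised L1 larvae, and an antibody against GFP was used to precipitate their sonicated chromatin. The 2 samples are biological replicates 1 and 2 of this single group, and both carry the tag. Whole animals were used, so tissues cannot be told apart, and the control experiment that the labels name was not analysed here.

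The major snRNAs form the RNA core of the spliceosome. U1 pairs with the 5′ splice site, U2 with the branch point, U4 holds U6 in an inactive pairing, U5 aligns the exons, and U6 takes part in catalysis. In animals, U1, U2, U4 and U5 are transcribed by RNA polymerase II and U6 by RNA polymerase III. Both depend on a proximal sequence element upstream of the start, which is bound by the SNAPc complex, and U6 promoters also hold a TATA box. C. elegans carries many dispersed copies of each gene.

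The annotation gives each gene only the biotype snRNA, so the genes were grouped by shared sequence. Single linkage of genes sharing at least 8 words of 12 bases gave 5 families of 5 or more genes, here called U1-like (14 genes), U2-like (20), U4-like (5), U5-like (12) and U6-like (24). The names come from short landmarks known from the human and yeast RNAs, which 69 of these 75 genes hold. Genes are named by RefSeq symbol, except the U6-like gene WBGene00235247, given by its WormBase identifier. The remaining 14 genes shared too little sequence with any family. The strongest bound genes of the U1-like, U2-like and U4-like families are shown, to let the families be told apart, on the transcribed strand, 5′ to 3′, from the RefSeq copy of the ce11 assembly, with the landmark in capitals. The capitals mark the 5′ splice site pairing stretch in U1-like, the branch point pairing stretch in U2-like and the 5′ end in U4-like.

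sup-6 (U1-like, chrII:12944803-12944967, minus strand): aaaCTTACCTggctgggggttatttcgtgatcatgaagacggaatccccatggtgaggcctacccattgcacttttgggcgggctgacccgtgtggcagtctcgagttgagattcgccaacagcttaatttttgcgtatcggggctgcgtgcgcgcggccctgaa
Y57G11C.35 (U2-like, chrIV:14764848-14765034, minus strand): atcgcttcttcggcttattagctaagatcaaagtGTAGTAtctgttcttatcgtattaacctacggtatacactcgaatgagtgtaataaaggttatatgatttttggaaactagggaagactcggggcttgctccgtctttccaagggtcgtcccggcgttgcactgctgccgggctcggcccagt
C52E4.8 (U4-like, chrV:11980118-11980261, plus strand): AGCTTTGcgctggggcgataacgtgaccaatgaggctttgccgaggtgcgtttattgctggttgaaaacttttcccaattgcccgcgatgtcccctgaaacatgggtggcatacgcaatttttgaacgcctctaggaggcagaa

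ATTF-6 was found at 46 of the 89 genes, or 51.7%, against 8.57% of all annotated genes under the same rule. The families differed widely in this share. Of the U1-like genes 13 of 14 were bound, of the U4-like 4 of 5, of the U5-like 9 of 12 and of the U2-like 14 of 20. The U1-like count includes mir-1831 and T27E4.22, which overlap other bound U1-like genes and share their summits. Of the U6-like genes 6 of 24 were bound, and of the 14 genes outside the families none was. For other short RNA genes, the shares were 17 of 18 for sls-2, 0 of 12 for sls-1, 8 of 10 for smy, 241 of 612 for tRNA genes and 91 of 346 for snoRNA genes. No test was made between these classes, because genes of a family share sequence and are not replicates.

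**Figure D1:**
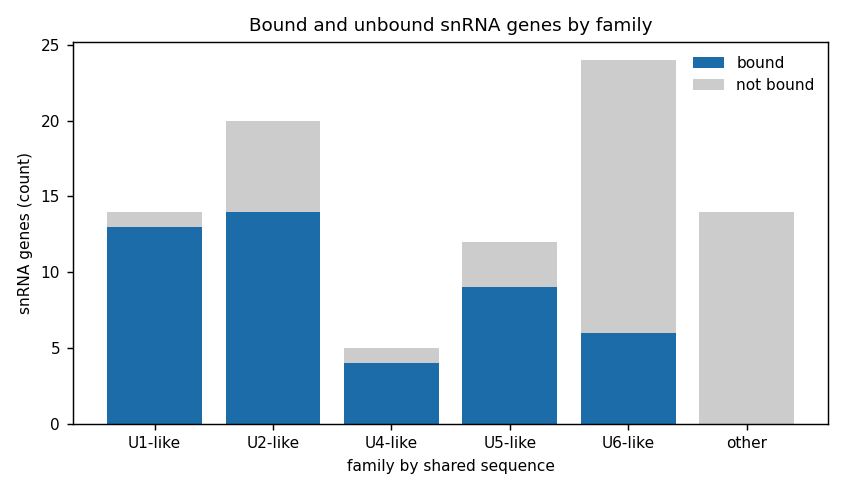
Number of snRNA genes (y axis) by family (x axis), split into genes with a conservative summit within 500 bp of the start (blue) and genes without (grey). U1-like genes were bound in 13 of 14 cases, and U6-like genes in 6 of 24.

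The distance to the nearest summit left a wide gap around the window edge. The bound genes farthest from a summit were T27E4.10 (U1-like) at 307 bp, F56H6.14 (U2-like) at 233 bp and F38E11.10 (U5-like) at 226 bp. The nearest unbound genes were C53D6.16 (U5-like) at 1366 bp, M163.13 (outside the families) at 2054 bp and Y17G9A.90 (U6-like) at 2076 bp. No gene of the set lay between 307 and 1366 bp, and 36 of the 43 unbound genes lay more than 5000 bp from any conservative summit. These distances were not measured over all genes, so the gap and this count have no background. In all, 5 genes shared 4 summits. The 22-base gene mir-1831, annotated as an snRNA, lies inside sup-39, and T27E4.22 overlaps T27E4.12. Their strongest summit is also that of T27E4.10, which overlaps neither but lies within reach of the window.

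Most bound genes were also found in each replicate alone. In its own thresholded list, replicate 1 had a summit at 47 of the 89 genes, against 4.58% of all genes, and replicate 2 at 43, against 4.56%. Of the 46 bound genes, 41 were in both lists. The share in both lists was not counted over all genes. The U1-like F40G12.14, the U4-like K03B8.10, the U5-like F38E11.11 and the U6-like C28A5.7 passed in replicate 1 only, and the U6-like Y17G9A.85 in neither. All 5 did have a region in the longer ranked list of each replicate, where Y17G9A.85 had signals of 47.5 and 26.9.

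The signal of a region is the authors' value and ranks regions within a list. Across the 46 genes the joint signal of the strongest summit ran from 73.5 to 1064 with a median of 194, and 43 genes were above the median of 80.8 over all 2134 conservative regions. Medians were 298 for U2-like, 219 for U5-like, 175 for U1-like, 115 for U6-like and 112 for U4-like genes. All family ranges overlapped.

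The 2 highest signals belonged to genes of different families. Y57G11C.35, a U2-like gene within the protein-coding gene Y57G11C.5, had a joint signal of 1064, the rank of 7 in the list, and values of 507 in replicate 1 and 508 in replicate 2. It lies in the piRNA-rich right region of chromosome IV (13500001 to 17250000), where 1 of 3 snRNA genes was bound. The share of all genes bound in this region was not counted. The U1-like sup-6, named as a suppressor gene, had a joint signal of 660 at rank 23, with 328 in replicate 1 and 270 in replicate 2. In both replicates these genes stood above all other snRNA genes.

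U2-like genes filled most of the top of the order. F56H6.14, F56H6.15 and F56H6.16, neighbours on chromosome I, had joint signals of 478, 444 and 374. Their replicate 1 values were 227, 261 and 187, and their replicate 2 values 239, 205 and 144. The 3 genes were thus in a different order in each replicate. F11A5.14 on chromosome V had 414 in the joint list, 212 in replicate 1 and 125 in replicate 2. The chromosome II genes F08G2.10, F08G2.11 and F08G2.9 had 343, 310 and 279, with 159, 196 and 127 in replicate 1 and 170, 150 and 157 in replicate 2. C47F8.9 had 287 (142 and 120 in replicates 1 and 2), Y47H9A.2 had 260 (139 and 119) and W04G5.11 had 255 (123 and 81.4). These 10 genes lay above the weakest bound genes of the family, C05G6.4 at 128 (72.4 and 58.9) and W07G1.9 at 90.5 (56.4 and 42.5).

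Among U1-like genes, T08G5.11 followed sup-6 with 302 (154 in replicate 1 and 113 in replicate 2). The suppressor gene sup-39 and mir-1831 inside it shared a region with 249 (150 and 74.9). The weakest was F40G12.13 with 106 (53.8 and 49.7), close to T27E4.10, T27E4.12 and T27E4.22, which shared a summit of 113. In replicates 1 and 2, T27E4.10 had 56.8 and 65.8, while T27E4.12 and T27E4.22 each had 51.4 and 65.8. H27M09.6 on chromosome I had 190, with 132 in replicate 1 and 70.0 in replicate 2.

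U5-like genes within the protein-coding genes unc-31 and pin-2 carried the 4 strongest signals of their family. ZK897.4 had 349 (133 in replicate 1 and 221 in replicate 2), ZK897.2 had 313 (182 and 132), ZK897.3 had 299 (156 and 121) and F07C6.5, within pin-2, had 245 (139 and 104). ZK897.4 was the highest of them in replicate 2 but the lowest in replicate 1. The weakest bound U5-like genes were F32B5.9 with 180 (110 and 89.4) and F42C5.12 with 135 (73.0 and 55.4).

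U4-like C52E4.8 stood apart within its family at 255 (159 and 93.1). F10D2.13 had 129 (76.1 and 48.5), K03B8.10 had 95.2 (55.1 and 33.5) and T11F9.15 had 77.5 (42.7 and 53.5). The U6-like genes were led by WBGene00235247 with 180 (88.0 and 87.8) and T08B6.62 with 135 (77.8 and 48.4). The lowest were C28A5.7 with 78.1 (51.8 and 29.1) and Y17G9A.85 with 73.5. The strongest U6-like signal was level with the 180 of F32B5.9 and was below 26 of the other bound genes.

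**Figure D2:**
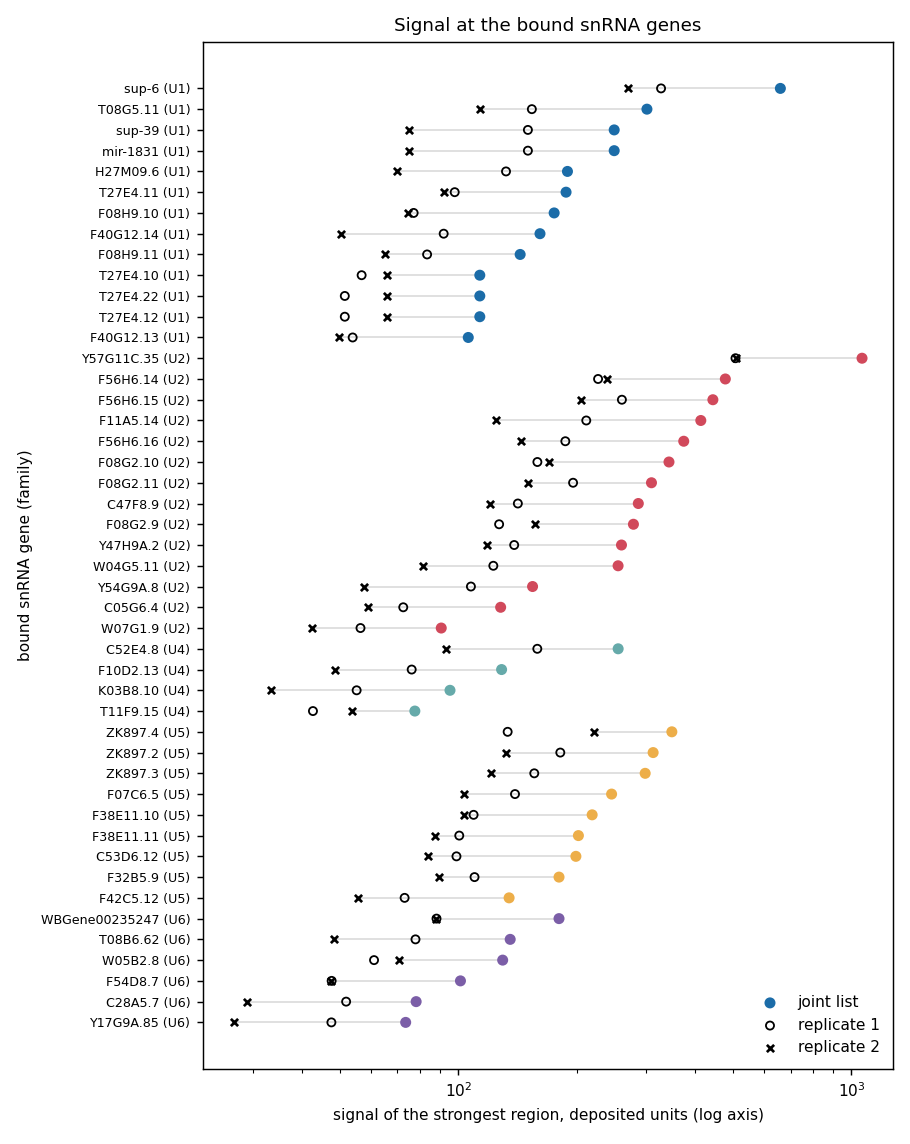
Signal of the strongest region (x axis, deposited units, log scale) at each of the 46 bound snRNA genes (y axis, family in brackets), with filled dots for the joint list, coloured by family, open circles for replicate 1 and crosses for replicate 2. Replicate 1 was higher than replicate 2 at 36 of 46 genes, and Y57G11C.35 was highest in all 3 lists.

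Over the 46 bound genes the replicate signals had a Spearman correlation of 0.88. Their regions had passed a threshold on reproducibility between the replicates, a choice that favours a like order. The genes also share libraries, and some share a summit. The value is therefore no independent measure of how well the replicates match. The median ratio of replicate 1 to replicate 2 was 1.25, and the median signal of each replicate's whole own list was 58.8 for replicate 1 and 53.3 for replicate 2. Family medians of this ratio ran from 1.22 for U1-like to 1.61 for U4-like genes. Single genes ranged from 0.60 at ZK897.4 to 2.01 at sup-39 and mir-1831.

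Among the unbound genes, R05D7.6 and Y69A2AR.36 had summits in both replicates' own lists. R05D7.6, a U2-like gene, had 215 in replicate 1 and 209 in replicate 2, and a joint signal of 404 that would have placed it among the strongest genes. Its joint region had a −log10 irreproducible discovery rate (IDR) of 0.22, where the threshold of 0.01 needs 2. The replicate summits lay 231 bp and 325 bp past the start. Y69A2AR.36, a U5-like gene, had 65.9 and 54.6 in the replicates, a joint signal of 122 and a −log10 IDR of 0.34, with summits at -17 bp and 118 bp. Both genes, with the U2-like W07G1.8 (joint signal 58.9) and the U6-like K09C6.12 (66.1), were in the other joint list, which held 48 of the 89 genes against 9.00% of all genes.

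The other unbound genes gave low values or none. No unbound gene had a region at the threshold in the ranked joint list, so none was lost through the regions that the conservative list leaves out. Of the 43 unbound genes, 22 had a region within 500 bp in that ranked list of 79981 regions, and 16 had none in any ranked list read here. The share of all genes with a region in the ranked lists was not counted, so these counts have no background. The U1-like C27H5.11 had a joint signal of 15.4 and the U4-like T11F9.16 one of 46.0. The U5-like C53B4.9 and C53D6.16 had 18.9 and 21.3 in replicate 1 and no region in replicate 2. The highest of the 14 genes outside the families was M163.13 on chromosome X with 39.0 (15.3 and 18.4), and all 3 members on X were in this class. By chromosome, bound genes were 8 of 12 on I, 8 of 13 on II, 3 of 7 on III, 13 of 29 on IV and 14 of 25 on V. Shares of all genes by chromosome were not counted, so these values have no background.

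Genes with the same transcript differed in whether they were called bound. Of 14 U6-like genes with identical sequence, WBGene00235247, W05B2.8 and C28A5.7 were bound and 11 were not. Their bound signals were 78.1 to 180, whereas the highest joint value among the 11 was the 66.1 of K09C6.12, and 3 had no joint region. The 6 copies K09B11.11 to K09B11.16 inside mam-3 were all unbound, and the joint values near them were at most 39.9. Of 7 identical U2-like genes, F56H6.14, F56H6.16, F08G2.10, C47F8.9 and W07G1.9 were bound, with 90.5 to 478, and R05D7.6 and W07G1.8 were not called. R05D7.6 nevertheless had a joint value of 404, above all of these bound copies but F56H6.14, so among the U2-like copies the call does not follow the signal.

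In the U2-like and U6-like families, the genes that departed most in sequence were unbound. The difference was counted as edits (substitutions, insertions and deletions) from the family's central sequence. W07G1.24 differed by 78 edits and T14B4.10 by 17 among the U2-like genes, F35C11.9 by 25 and B0205.15 by 20 among the U6-like genes. All 4 had no region in any list read here. Bound U2-like genes differed by at most 6 edits and bound U6-like genes by at most 1. Small departures did not separate the classes, since the unbound U2-like and U6-like genes had medians of 1 and 0. In other families departed copies were bound, such as T27E4.12 (U1-like) with 15 edits and F32B5.9 (U5-like) with 13.

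Much of the sequence inside the families recurs in the genome. The share of 50-base words that occur more than once in the genome was 77.9% over the first 100 bp of U2-like genes, 78.2% for U4-like, 65.5% for U1-like, 55.8% for U6-like and 44.8% for U5-like genes, and 1.14% for genes outside the families. At 200 to 300 bp past the start it was 20% for U2-like genes and at most 1.83% in the other families. With words of 100 bases the share over the first 100 bp fell to 62.9% for U2-like and to between 9.58% and 30.0% for the others. F15H9.5 and F15H9.6, U2-like genes on opposite strands of chromosome I, had 100% over the whole window of 500 bp to either side. Both had no region in any list read here. The sources used here do not give how reads with several matches were placed, and the part of repeated sequence in these results was not tested.

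**Figure D3:**
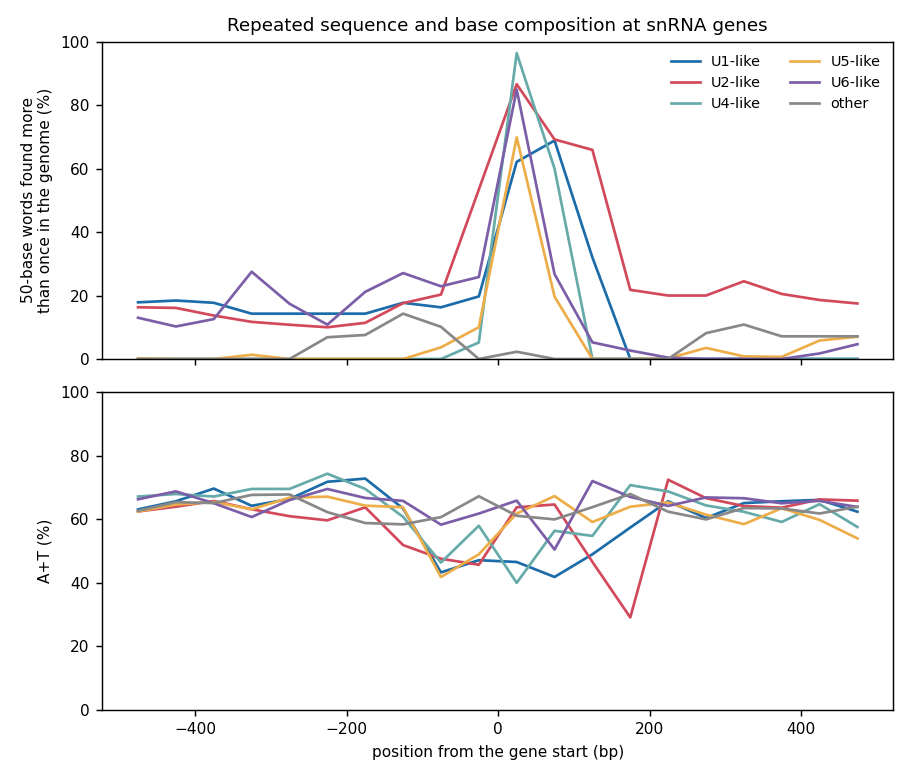
Share of 50-base words that occur more than once in the genome (upper y axis, %) and A+T content (lower y axis, %) in 50 bp bins by position from the gene start (x axis, bp), as means over the genes of each family, with 1 line per family. Repetition peaked inside the genes of all 5 families and stayed low for the genes outside them.

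Summits lay at different places in the families. The strongest summit was a median of 147.5 bp past the start over the 46 genes, with quartiles of 6.75 and 197.75 bp. The median was 193.5 bp for U2-like, 164 bp for U1-like, 134 bp for U5-like, 27 bp for U4-like and -18.5 bp for U6-like genes. U2-like transcripts are mostly 187 bp long and U6-like ones 102 bp. In all, 9 strongest summits were upstream of the start, 15 in the gene and 22 past its end. In the joint list no U6-like gene had its strongest summit past the start, and no U1-like or U2-like gene had it upstream. This did not hold in each replicate's own list. The strongest gene, the U2-like Y57G11C.35, had it upstream in both replicates, at -50 bp and -31 bp. In replicate 2, the U1-like F08H9.11 and F40G12.13 had it at -28 bp and -10 bp, and the U2-like F11A5.14 at -4 bp. The U6-like W05B2.8 had it at 25 bp in replicate 1, and the U6-like WBGene00235247 and T08B6.62 at 4 bp and 20 bp in replicate 2.

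U5-like genes fell into separate positions. ZK897.3, ZK897.4 and F07C6.5 had their strongest summits 17 to 18 bp upstream and ZK897.2 at 3 bp. The other 5 had theirs between 134 bp and 226 bp, past the end of the transcript. This position varied between replicates. For F38E11.10 it was -14 bp in replicate 1 and 314 bp in replicate 2, and for sup-6 it was 140 bp and 252 bp. F11A5.14 had 141 bp in replicate 1 and -4 bp in replicate 2. The medians over genes in each replicate's own list were 123 bp and 131 bp.

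At 22 of the 46 genes the joint list held 2 summits, which made 20 distinct pairs because sup-39 shares a pair with mir-1831 and T27E4.12 with T27E4.22. Of these pairs, 13 lay on both sides of the start, and the stronger summit was the downstream one in 13. Y57G11C.35 had 1064 at 146 bp and 668 at -85 bp. At sup-6 the values were 660 at 164 bp and 70.2 at -35 bp. C52E4.8 showed the opposite order, with 255 at -22 bp and 174 at 186 bp, as did ZK897.4 with 349 at -18 bp and 112 at 183 bp. The stronger summit was downstream in 5 of 5 U1-like and 8 of 10 U2-like pairs and in none of the 5 pairs of the other families. Pairs were 199 to 374 bp apart with a median of 208 bp. Over the whole list, 190 neighbouring summits within 500 bp had a minimum spacing of 199 bp and a median of 204 bp, so this spacing is shared by the list. Taking the summit nearest to the start in place of the strongest gave a median of 8 bp.

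**Figure D4:**
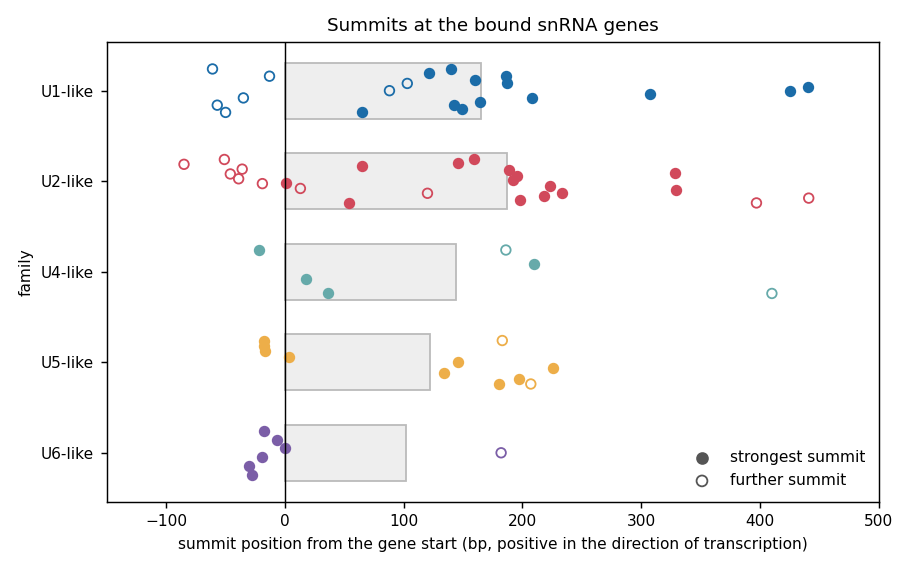
Position of each conservative summit from the gene start (x axis, bp, positive in the direction of transcription) for the bound genes of each family (y axis, vertical spread only for legibility), with filled dots for the strongest summit of a gene and open circles for a further one. Grey bars show the median transcript. In this joint list, strongest summits of U6-like genes were at or upstream of the start, and those of U1-like and U2-like genes past it.

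The stretch upstream of many bound genes held a shared element. It is written here as GNAAC followed 8 bases later by TGTC and, in U2-like genes, as CGCNCC followed 7 bases later by TGTC. These spellings were read from the upstream sequences of these same genes. Both strands were searched from 80 to 30 bp upstream of the start, and TATATAA was searched from 45 to 15 bp upstream. Stretches from 75 to 16 bp upstream follow, with exact matches in capitals. They were picked with the matches known, to show each form in bound genes, a bound gene without an exact form (C52E4.8), an unbound gene with one (F54C8.10), and unbound genes without, so they do not show how often a form occurs. Of the unbound U2-like genes, T14B4.10 is the only one that lacks the CGCNCC form.

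sup-6 (U1-like, bound, chrII:12944983-12945042, minus strand): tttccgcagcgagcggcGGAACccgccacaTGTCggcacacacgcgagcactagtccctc
Y57G11C.35 (U2-like, bound, chrIV:14765050-14765109, minus strand): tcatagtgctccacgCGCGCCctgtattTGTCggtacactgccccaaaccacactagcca
F10D2.13 (U4-like, bound, chrV:7142874-7142933, minus strand): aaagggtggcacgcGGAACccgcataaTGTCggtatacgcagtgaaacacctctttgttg
ZK897.4 (U5-like, bound, chrIV:12787063-12787122, plus strand): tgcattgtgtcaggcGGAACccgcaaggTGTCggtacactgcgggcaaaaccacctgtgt
WBGene00235247 (U6-like, bound, chrIV:4930879-4930938, plus strand): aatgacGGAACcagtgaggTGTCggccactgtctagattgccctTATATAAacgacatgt
W05B2.8 (U6-like, bound, chrIII:10989604-10989663, plus strand): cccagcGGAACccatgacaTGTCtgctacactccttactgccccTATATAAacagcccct
C52E4.8 (U4-like, bound, chrV:11980043-11980102, plus strand): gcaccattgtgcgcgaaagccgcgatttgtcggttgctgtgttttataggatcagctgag
F54C8.10 (U6-like, unbound, chrIII:9449494-9449553, plus strand): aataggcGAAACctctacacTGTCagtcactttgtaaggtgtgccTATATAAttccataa
T14B4.10 (U2-like, unbound, chrII:6716370-6716429, minus strand): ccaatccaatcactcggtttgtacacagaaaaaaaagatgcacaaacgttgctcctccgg
K09B11.13 (U6-like, unbound, chrIV:13440669-13440728, minus strand): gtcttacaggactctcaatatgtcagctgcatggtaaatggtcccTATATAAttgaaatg
F32D1.12 (U6-like, unbound, chrV:4354365-4354424, plus strand): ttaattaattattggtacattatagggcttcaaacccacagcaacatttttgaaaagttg

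The GNAAC form was in 22 of the 46 bound and 6 of the 43 unbound genes, against 0.0801% of 19973 protein-coding genes. The CGCNCC form was in U2-like genes alone among the families, in 13 of 14 bound and 5 of 6 unbound, against 2 protein-coding genes. Outside the families, 3 of 18 sls-2 genes held it. Of the 46 family genes with either form, 35 were bound, and of the 29 without, 11 were. Most of this difference came from the U6-like family, with 5 of 9 bound with a form and 1 of 15 without. Over the other 4 families it was 30 of 37 and 10 of 14, and among U1-like genes 10 of 11 and 3 of 3. All these counts take the element of sup-39 again for mir-1831, and that of T27E4.12 again for T27E4.22. With at most 1 fixed letter changed, 42 of 46 bound and 18 of 43 unbound genes held a form, against 2.12% of protein-coding genes. Among family genes, 42 of the 60 with such a form were bound, and 4 of the 15 without. Over the 4 families other than U6-like it was 37 of 47 and 3 of 4. In the U2-like family the element did not separate the classes, and the unbound R05D7.6 and W07G1.8 held it. The median start of the GNAAC form was 60 bp upstream, and in U6-like genes it was 68 or 69 bp upstream.

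TATATAA was in all 6 bound U6-like genes and in 9 of the 18 unbound ones, at 30 or 31 bp upstream, against 1.83% of protein-coding genes. It was in no bound gene of another family. The unbound copies in mam-3 held TATATAA without an exact GNAAC form, as K09B11.13 above shows, while F54C8.8 and F54C8.9 held the GNAAC form without TATATAA. F54C8.10 held both and had no region in any list read here. Of the sls-2 genes 9 of 18 held the GNAAC form, of the snoRNA genes 33 of 346 (9.54%), and of the sls-1, smy and tRNA genes none. With at most 1 fixed letter changed, a form was in 13 of 18 sls-2, 8 of 10 smy and 0 of 12 sls-1 genes. It was in 50 of 346 snoRNA and 25 of 612 tRNA genes.

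AT-hooks are known for contacting A+T-rich DNA. Upstream of the bound snRNA genes the median A+T was lower than upstream of protein-coding genes. Over the 100 bp upstream, A+T had a median of 46% in bound and 58% in unbound genes, 68% in protein-coding genes, and the genome as a whole had 64.6%. For other short RNA genes it was 40% for sls-1 and 50.5% for sls-2. It was 54% for smy, 55% for snoRNA and 58% for tRNA genes. In the U6-like family the medians were 52% for bound and 65% for unbound genes, and 42% and 51% in the U5-like family. In the U2-like family they were 46% and 46.5%. Among the 14 identical U6-like genes the ranges overlapped, with 45 to 53% in the 3 bound and 47 to 69% in the 11 unbound genes. Within 101 bp at the summits, the median was 53.5% for the bound snRNA genes and 57.4% over the whole list. Only 9 of the 46 strongest summits lay upstream of the start. Whether A+T content bears on binding was not tested.

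Protein-coding genes of snRNA transcription, processing and use, with some related factors, were compared as a further group. Of 90 such genes matched in the annotation, 11 had a conservative summit from 1000 bp upstream to 200 bp downstream of a transcript start, or 12.2%, against 4.29% of all protein-coding genes. Of the 11, 5 were found in both replicates' own lists, a share not counted over all protein-coding genes. Of the rest, snpc-3.1 and snrp-200 passed in replicate 2 only. The genes lsm-3, lsm-8 and uaf-2 passed in replicate 1 only, and ints-4 in neither. The lists were SNAPc and basal factors (2 of 13), RNA polymerase subunits (1 of 10), Integrator, which cleaves nascent snRNAs (1 of 11), Sm and LSm ring proteins (4 of 15), other snRNP and splicing proteins (2 of 29), and assembly and maturation factors (1 of 12). The polymerase list also holds the RNA polymerase I genes rpoa-1, rpoa-2, rpoa-12 and rpoa-49, and the SNAPc list the piRNA factor genes prde-1, tofu-4 and tofu-5, none of which had a summit.

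In the SNAPc list, the subunit genes snpc-3.4 and snpc-3.1 had summits with signals of 99.8 and 93.9, while snpc-4, the subunit known in worms from piRNA transcription, had none. The polymerase subunit gene rpac-19 had 88.3 and ints-4 had 73.8. Of the genes for Sm proteins, which form the ring on U1, U2, U4 and U5, snr-4 had 255 and snr-1 had 177. The snr-4 summit was that of the U4-like C52E4.8, 373 bp upstream of snr-4, and the lists do not assign it to either gene. The LSm genes lsm-8 and lsm-3, whose products bind U6, had 101 and 75.6. The U5 helicase gene snrp-200 had 98.2, uaf-2 for the small U2AF subunit had 90.0, and smn-1, whose product loads Sm rings, had 106. The summits of snr-1 and uaf-2 lie in the piRNA-rich right region of chromosome IV. Those of lsm-8, lsm-3 and uaf-2 were at -684 bp, -941 bp and -699 bp. Apart from snr-4, all these values were below the median of 194 at the snRNA genes.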

How the data were processed

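ATTF-6 ChIP-seq regions came from lists that the authors deposited on ce11, the assembly also named WBcel235. These were 8 ranked and thresholded lists, for each replicate and for both together. A second ranked joint list among them was not read. The signal of a region and the −log10 of its global IDR are the authors' deposited values. The sources used here do not give the aligner, peak caller or read counts, so depth is unknown and no interval covers it. Replicate signals were read from each replicate's own lists, taking the strongest summit within 500 bp of a gene start. Summits were counted from 1, and regions repeated with another summit count once per summit. Nothing records that replicates differ beyond being biological replicates 1 and 2.

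Gene starts came from Ensembl release 115 and symbols from RefSeq, which matched all 89 genes. Sequences were read from the RefSeq genome of the same assembly with samtools 1.23.1 and pysam 0.24.0, edits were counted with edlib 1.3.9.post1, and tables were made with pandas 2.3.3. No test was made, because 1 group gives no comparison and genes are not replicates. Counting was checked on simulated data. Transcript sequences of U5-like and U6-like genes are not reported here.

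Every gene of the set could be named. Joint and replicate signals were given for the 20 strongest, the 2 strongest and 2 weakest bound of each family, and those sharing a summit. Up to 4 unbound genes per class were named by ranked-list signal, some with the joint value alone. The 3 at either side of the window edge were given by distance. Every bound gene of the pathway lists was given by its joint signal. The genes and lists were chosen with earlier results of these data known. Alternatives covered the window, the IDR level, the list, overlap rules and each replicate alone. Of the 109 pathway symbols, 19 were not matched and were left out.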

Additional observations from a re-analysis of the deposited data

How the results depend on the processing

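The count of bound snRNA genes was between 40 and 48 under all 15 alternatives, against 46; within 200 bp it was 40, against 4.99% of all genes, and the number of bound genes in either single replicate was 43 to 47. The median signal of 194 rose to 211 at a global IDR of 0.001 and was 87.8 to 109 in either replicate alone, whose lists have their own scale. The median summit position of 147.5 bp was 95.5 bp with a window of 200 bp, 154 bp with one of 1000 bp and also at an IDR of 0.001, 8 bp for the nearest summit, and 123 to 131 bp in either replicate alone. The count of bound pathway genes fell from 11 of 90 to 4 within 200 bp of a transcript start (all protein-coding genes 1.81%) and to 7 at an IDR of 0.001 (2.29%), and was 7 to 8 in either replicate alone (2.84% for replicate 1 and 2.52% for replicate 2). Alternatives without overlapping annotations, in both replicates' own lists, and without summits near short RNA genes were chosen after seeing the data. They gave 44 and 43 bound snRNA genes and 10 pathway genes (all protein-coding genes 3.69%). Shares of all genes to set beside the 44 and 43 were not counted. No paired analysis was possible because the replicates form 1 group. Depth is unknown and only 2 replicates exist, so an unbound gene is one not called. The part of repeated sequence inside the genes was not tested.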
